A study of Mus musculus with 2 samples.

Results

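The prostaglandin and leukotriene pathway was followed through 10 genes, chosen by function: Pla2g4a, Ptgs1, Ptgs2, Ptges, Tbxas1, Alox5, Alox5ap, Lta4h, Ptger2 and Ptger4. A probe set counted for a gene when that gene was its single symbol in the platform annotation. By this rule 8 of the 10 genes had 13 probe sets, among 12393 genes with 20380 probe sets on the array. The expression of Ptgs1, the constitutive cyclooxygenase, and Alox5, the 5-lipoxygenase, was not analysed here. Messenger RNA was measured on Affymetrix mouse expression arrays in RAW 264.7 cells, a mouse macrophage tumour line. One set of cultures received IFN-gamma (1000 U/ml) for 4 h, and the other received the same cytokine together with 300 uM adenosine over the same 4 h. Each treatment was 1 array hybridized with a pool of RNA from 2 experiments. Both contained IFN-gamma, and cells without it were not analysed here. The comparison addresses how adenosine alters gene expression in macrophages activated by this cytokine.

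Prostaglandins and leukotrienes are short-lived lipid mediators made from arachidonic acid. Cytosolic phospholipase A2, encoded by Pla2g4a, frees arachidonic acid from membranes. Cyclooxygenases then convert it to prostaglandin H, from which terminal synthases make prostaglandin E or thromboxane, whereas 5-lipoxygenase with its activating protein starts the leukotriene branch. In macrophages, cyclooxygenase 2 (Ptgs2) is the inducible enzyme of the prostaglandin branch, and the receptors EP2 and EP4 carry the prostaglandin E signal into the cell.

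The 2 genes of the pathway with at least 2-fold lower signals, Ptgs2 and Pla2g4a, are direct protein-coding neighbours in the RefSeq gene table. Their promoters are shown because these genes carry the difference described below. Each sequence is RefSeq's of GRCm38.p6, the 250 bases before an annotated start, read 5′ to 3′ on the gene's strand, and capitals mark the motif letters found. Of the 2 annotated starts of Pla2g4a, the one nearer to Ptgs2 is given.
Ptgs2, chr1:150099781-150100030, plus strand: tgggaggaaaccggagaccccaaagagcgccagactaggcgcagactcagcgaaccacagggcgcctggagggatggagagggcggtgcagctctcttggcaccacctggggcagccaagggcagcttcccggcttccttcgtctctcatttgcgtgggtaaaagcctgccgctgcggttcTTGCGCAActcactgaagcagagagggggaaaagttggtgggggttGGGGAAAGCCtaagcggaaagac
Pla2g4a, chr1:149961291-149961540, minus strand: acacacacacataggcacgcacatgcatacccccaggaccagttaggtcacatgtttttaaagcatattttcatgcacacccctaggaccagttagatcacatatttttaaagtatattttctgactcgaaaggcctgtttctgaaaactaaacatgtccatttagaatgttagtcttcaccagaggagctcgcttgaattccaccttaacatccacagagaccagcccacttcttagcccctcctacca
Motifs searched on both strands were the cyclic AMP response element TGACGTCA and its half-site TGACG, which lies within it, the C/EBP palindrome TTGCGCAA, the E-box CACGTG, a loose kappaB pattern of GGG and CC with any 5 bases between them, the interferon patterns TTCNNNGAA (GAS) and ISRE (GAAA and GAAA with any 2 bases between them), the AP-1 pattern TGANTCA and the TATA letters TATAAA. The Ptgs2 window held TTGCGCAA from 69 to 62 bases before the start and the kappaB pattern from 23 to 14 bases before it. The palindrome was present in 0.164% of all 32851 promoter windows of this length, and the kappaB pattern in 45.8%. No searched pattern was present in the Pla2g4a window shown, and its other window, near the second annotated start, held only the TATA letters, which 12.4% of all windows held. Among the 9 members with a promoter sequence (10 windows, Ptgs1 and Alox5 included), the kappaB pattern was found in 5 and the palindrome in 1. The cyclic AMP response element or its half-site was found in none, where 1.55% and 17.8% of all windows held them. These are matches of letters and not measured binding. Bases after an annotated start were not searched, so a pattern lying there, also in Ptgs2, would be missed.

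Signals are linear intensity values of a probe set, a group of short probes for a transcript. The adenosine array was dimmer throughout, with a median of 15.2 against 45.9 over 22626 gene probe sets as deposited. The log2 ratio of the adenosine array over the IFN-gamma array had a median of -1.50, which was removed by multiplying adenosine signals by 2.82. All adenosine signals below carry this factor except those called deposited. A gene was measured when its brighter array reached 44.0, the floor, which is the 50th percentile of scaled signals, and a dimmer signal was raised to the floor. After scaling, 691 of 6818 measured genes (10.1%) had signals lower by 2-fold or more with adenosine, and 308 (4.52%) had signals higher by that much. The same counts were 5605 and 10 as deposited, 3538 and 33 when spiked-in control transcripts were set equal, and 568 and 399 with quantile scaling. The deposited shift of the spiked-in controls was -0.53, smaller than that of the genes. Every direction below is therefore relative to the array median. With 1 array per condition there was no test, and the error given is how far log2 ratios of a gene's probe sets scatter, with an SD of 0.52 over 2375 genes. This scatter holds no spread between cultures or between arrays, and having only 2 arrays limits the precision of each value.

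All 10 macrophage markers, including Cd68, Csf1r and Adgre1, were measured on these arrays. None of 7 mast cell, 7 granulocyte or 11 fibroblast, endothelial and epithelial markers reached the floor, with highest signals of 37.0, 28.8 and 14.1. Of 5 platelet and megakaryocyte markers Pf4 was measured (577 against 748), and the others had at most 32.1 on either array. Of 7 lymphocyte markers Zap70 was measured (45.9 against 97.0). After scaling, 6 of the 10 macrophage markers were higher and 4 lower with adenosine, from Lyz2 (6444 and 13361) to Fcgr1 (3388 and 1181). The summed signals of these macrophage markers were 33513 and 44547, or 15804 as deposited on the adenosine array. Their part in the results was not tested. In RNA from whole cultures, fewer cells expressing a gene and less RNA per cell cannot be told apart.

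Of the 10 members, 6 were measured, 2 were below the floor on both arrays and 2 had no probe set of their own. Of the 6, Ptgs2 and Pla2g4a were at least 2-fold lower with adenosine and none was at least 2-fold higher, against 10.1% and 4.52% of all measured genes. Their median log2 ratio was -0.41, compared with -0.08 for all measured genes. At 1.5-fold, 3 of 6 were lower and none higher, against 21.8% and 12.9% of all measured genes, and at 3-fold 1 was lower and none higher, against 2.96% and 0.983%. In the values as deposited 5 of 6 were at least 2-fold lower, where 78.8% of all genes were. By brightest probe sets, the members ranged from -4.17 for Ptgs2, with no measured gene lower, to 0.18 for Alox5ap, which lay below 0 as deposited and with spiked-in scaling.

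**Figure D1:**
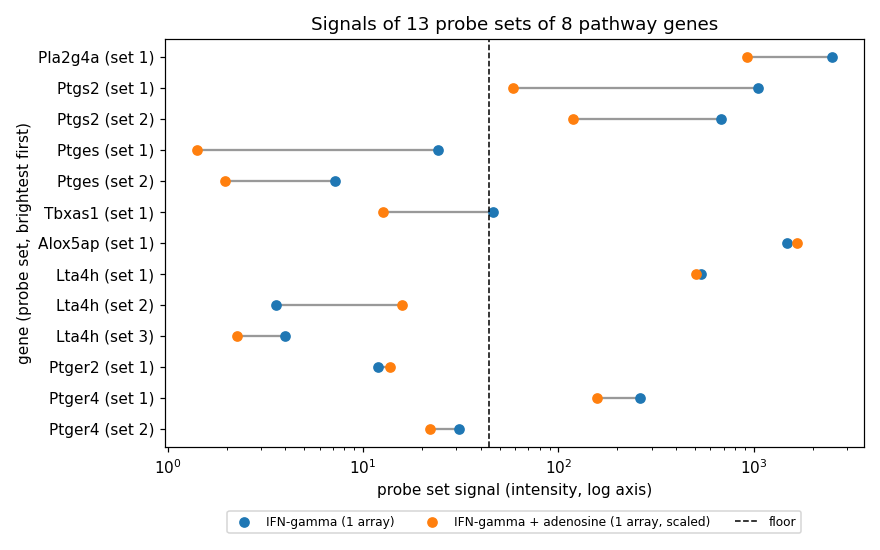
Signal of each of the 13 probe sets with IFN-gamma alone and with adenosine after scaling (log axis), ordered by role in the pathway, with the floor of 44.0 as a dashed line. Both Ptgs2 probe sets and that of Pla2g4a lay lower with adenosine, Alox5ap and the brightest Lta4h probe set lay close together on both arrays, and both Ptges probe sets and that of Ptger2 stayed below the floor.

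Pla2g4a, which supplies arachidonic acid to both branches, had a signal of 2506 with IFN-gamma and 924 with adenosine. Deposited, the adenosine value was 327.7. The gene was 2.71-fold lower, a log2 ratio of -1.44 (probe set SD 0.42 for genes this bright). Only 269 of the 6818 measured genes had lower ratios. Its single probe set stood at percentile 96.9 of the IFN-gamma array and 90.8 of the adenosine array, a ranking that needs no scaling factor. This probe set can match several transcripts of the gene, and no second one was available to compare with it.

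Ptgs2 makes prostaglandin H after macrophage activation. Its brightest probe set had a signal of 1054 with IFN-gamma and 58.6 with adenosine, 18.0-fold lower. The second probe set had 683 and 118, which is 5.80-fold lower. Deposited adenosine values were 20.8 and 41.8. Both probe sets were thus bright with IFN-gamma and near the middle of the array with adenosine. Within the arrays they stood at percentiles 91.1 and 53.5 for the first probe set and 86.9 and 62.4 for the second. Their log2 ratios of -4.17 and -2.54 shared a direction but were 1.63 apart, a gap reached or passed in 84 of 2375 genes (3.54%) with a pair of probe sets above the floor. With the floor at the 67th percentile, a signal of 165, the log2 ratio was bounded at -2.67, and with both probe sets averaged it was -3.35. Genes with lower ratios numbered 10 and 5 under these settings, and 40 lay below the ratio of the second probe set.

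The 3 genes above the floor on both arrays whose log2 ratio was nearest to that of Ptgs2 were Gbp2, an interferon-induced GTPase gene (-4.02), Cd40, a costimulatory receptor gene (-3.68), and Ltb, the lymphotoxin beta gene (-3.58). They lay 0.15, 0.49 and 0.59 from it on the log2 scale, over 2 arrays. Because no measured gene was lower than the brightest Ptgs2 probe set, these could only be the next lowest ratios. The second Ptgs2 probe set, at -2.54, lay 1.63 from the brightest, further than any of the 3 genes.

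Among terminal synthases, Tbxas1, the thromboxane synthase gene, had signals of 46.3 and 12.7. The first lay just above the floor and the second below it, so the gene was at least 1.05-fold lower. Ptges, the inducible prostaglandin E synthase gene, was below the floor on both arrays, with signals of 24.2 and 1.41 at one probe set and 7.20 and 1.97 at the other. All 3 of these probe sets had the lower signal on the adenosine array, but at the floor of 44.0 no fold is given for Ptges. With the floor at the 33rd percentile, a signal of 8.74, Tbxas1 was 3.65-fold lower and Ptges at least 2.77-fold lower. With a pseudocount of 16 and no floor, the log2 ratio of Tbxas1 was -1.12.

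Alox5ap and Lta4h, the measured members of the leukotriene branch, differed little from the array median, while Alox5 itself had no probe set of its own. Alox5ap, whose membrane protein presents arachidonic acid to 5-lipoxygenase, had signals of 1476 and 1670. Its log2 ratio of 0.18 was smaller than the probe set SD of 0.42 and became -1.32 as deposited and -0.79 with spiked-in scaling. Lta4h encodes leukotriene A4 hydrolase, which makes leukotriene B4. Its brightest probe set had 536 and 505, a log2 ratio of -0.09 (SD 0.52) that crossed 0 with quantile (0.04) and loess scaling (0.01). Ranks within the arrays were nearly equal, at percentiles 93.9 and 94.8 for Alox5ap and 83.9 and 84.3 for Lta4h. The other 2 Lta4h probe sets were below the floor, with signals of at most 15.8.

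Of the prostaglandin E receptors, Ptger4, the EP4 gene, had signals of 262 and 158 at its brightest probe set. It was 1.67-fold lower, a log2 ratio of -0.74 (SD 0.56), and 1110 measured genes had lower ratios. The second probe set was below the floor, at 31.1 and 22.0. Ptger2, the EP2 gene, did not reach the floor on either array, with signals of 11.9 and 13.8.

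**Figure D2:**
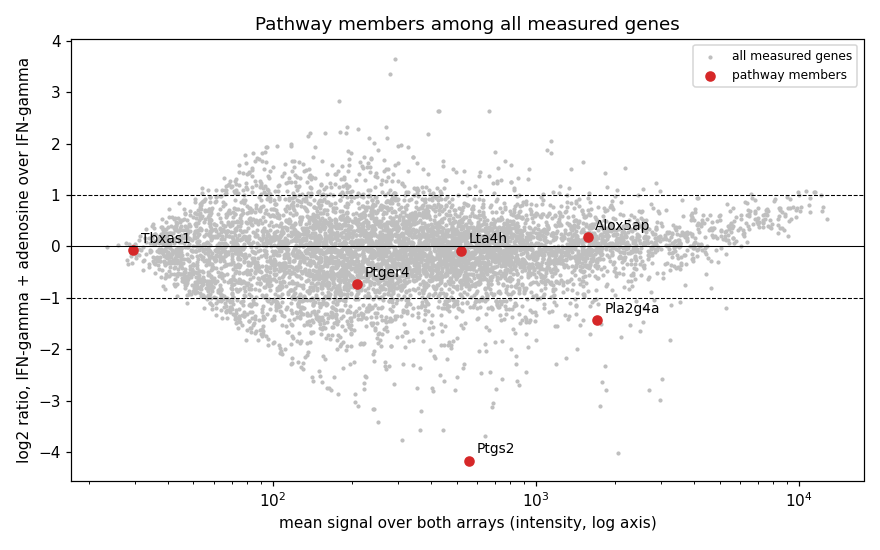
Log2 ratio of the adenosine array over the IFN-gamma array against the mean signal of both arrays (log axis) for the 6818 measured genes in grey and the 6 measured members in red, with dashed lines at 2-fold. Ptgs2 lies at the lower edge at -4.17 and Pla2g4a at -1.44, while Alox5ap, at a mean signal like that of Pla2g4a, lies at 0.18 (below 0 as deposited and when spiked-in controls are set equal).

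Differences between members do not depend on a constant scaling factor while both signals stay above the floor. The log2 ratio of Ptgs2 lay 2.73 ± 0.67 (SD from probe set scatter) below that of Pla2g4a. Against Lta4h and Alox5ap it lay lower by 4.08 ± 0.73 and 4.35 ± 0.67. Pla2g4a in turn lay 1.62 ± 0.59 below Alox5ap and 1.35 ± 0.67 below Lta4h. For the brightest Ptgs2 probe set these differences were 4.07 to 6.49 times the scatter, and those of Pla2g4a were 2.01 to 2.75 times it. This scatter is pooled over genes of like mean signal, whereas the 2 Ptgs2 probe sets themselves lay 1.63 apart. The difference of Ptgs2 from Pla2g4a was smaller by its second probe set (1.10). It was also smaller with the mean of all probe sets (1.91, or 2.85 times the scatter). With the floor at the 67th percentile it was 1.23, or 1.84 times the scatter. These differences show unequal ratios and not which gene stayed constant.

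**Figure D3:**
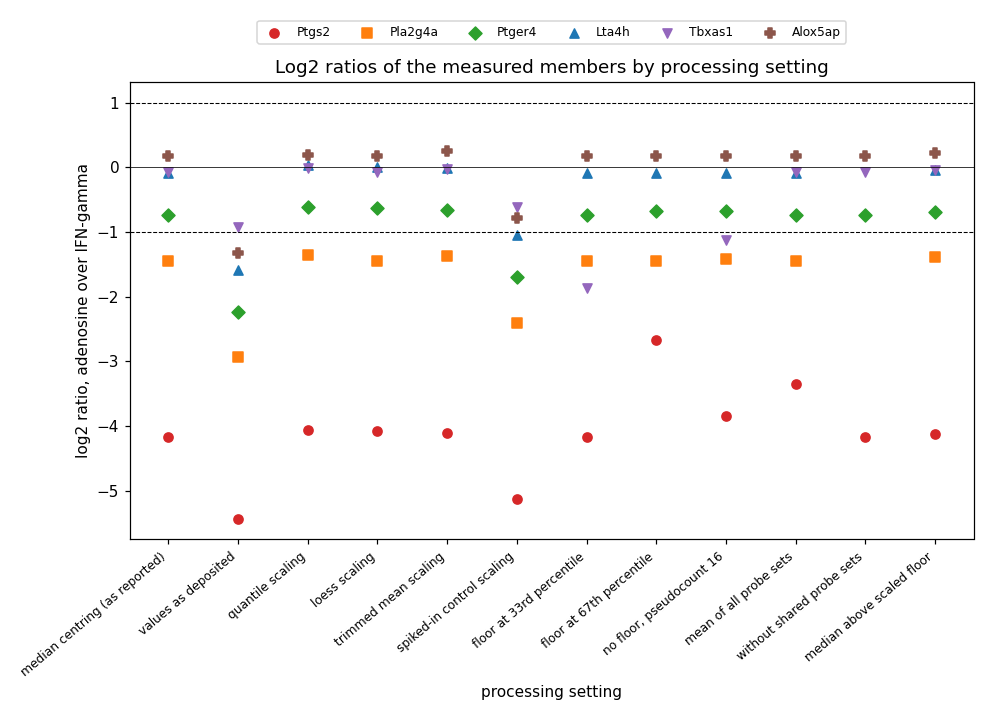
Log2 ratio of each measured member under median centring and 11 other processing settings, where a missing point means that the gene was not measured. Ptgs2 was the lowest of the members in all 12, from -5.43 to -2.67, and both of these values were bounds set by the floor. Pla2g4a was at least 2-fold lower wherever measured, and Alox5ap lay below 0 with the spiked-in scaling and in the deposited values.

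Around the members, 72 further genes of arachidonic acid supply, synthesis, reception and removal were read in 6 lists, which also hold members. Of the 59 with a probe set 28 were measured. Signals were lower by 2-fold or more in 2 of them (7.14%) and higher by 2-fold or more in 2 (7.14%), and the median log2 ratio was -0.06. These shares are near the 10.1% and 4.52% of all measured genes.

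Phospholipases and lipases of arachidonic acid release went both ways. Of 8 measured, Pla2g4a was the 1 gene lower by 2-fold or more and 2 genes were higher by as much. Over all measured genes, 10.1% were lower and 4.52% higher by that much. The list median was -0.54, compared with -0.08 for all measured genes. It became -1.4 as deposited and -1.09 with spiked-in scaling, where that of all measured genes was -1.5 and -1.01. The list thus lay below all measured genes after median centring but not as deposited. Pla2g15, the lysosomal phospholipase A2 gene, had signals of 92.5 and 275 (2.97-fold higher), but the log2 ratio of its second probe set was 0.52, and the gene's value became -0.98 as deposited and -0.45 with spiked-in scaling. Pla2g12a, of the secreted group XIIA enzyme, had 212 and 426 (2.01-fold higher), a log2 ratio of 1.01 that became -0.49 as deposited and 0.04 with spiked-in scaling. None of the 6 measured genes that return arachidonic acid to membranes was 2-fold different, and their median was 0.09, or -1.41 as deposited and -0.88 when spiked-in controls were set equal. The largest log2 ratios among them were -0.66 for Acsl4, an arachidonate-preferring acyl-CoA synthetase gene (second probe set 0.27), and -0.50 for Mboat1, an acyltransferase gene.

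Of 6 measured prostanoid synthases, Ptgs2 was at least 2-fold lower and none was 2-fold higher, against 10.1% and 4.52% of all measured genes. The list median of 0.08 became -1.21 as deposited and -0.68 when spiked-in controls were set equal. Apart from Tbxas1, whose ratio is a bound set by the floor, the next largest value was that of Prxl2b, of a prostamide and prostaglandin F synthase, at 48.0 and 66.2, a log2 ratio of 0.46 that became -0.97 as deposited and -0.50 with spiked-in scaling. None of 5 measured lipoxygenase and leukotriene genes was 2-fold different. Their median was 0.18, or -1.32 as deposited and -0.79 with spiked-in scaling. Ltc4s, the leukotriene C4 synthase gene, had signals of 115 and 145, and Mgst2, a microsomal glutathione transferase gene that can also make leukotriene C4, 166 and 199, and the log2 ratios of both, 0.33 and 0.26, turned negative as deposited (-1.17 and -1.23) and when spiked-in controls were set equal (-0.64 and -0.71).

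Receptors were the list with the lowest median, -0.74 over 5 measured genes, compared with -0.08 for all measured genes. That median is the value of the member Ptger4. All 5 had ratios below 0, as did 56.0% of all measured genes, and 2 were at least 2-fold lower, against 10.1%. The second probe set of Cysltr1, a cysteinyl leukotriene receptor gene, gave 0.12, and the ratio of Ptgir, the prostacyclin receptor gene, was a bound set by the floor. Ltb4r1, the high-affinity leukotriene B4 receptor gene, had signals of 134 and 51.0 and was 2.62-fold lower. Fpr2, a formyl peptide receptor that also binds lipoxin A4, had 165 and 70.5 and was 2.35-fold lower. With the floor at the 67th percentile Ltb4r1 was no longer measured and Fpr2 lay at the floor on both sides. Another 8 receptors were below the floor on both arrays, among them those of prostaglandin D, prostaglandin F and thromboxane. None of 4 measured removal genes was 2-fold different. Abcc1, the leukotriene C4 exporter gene, had 864 and 441, a log2 ratio of -0.97, but its second probe set gave 0.72, and Ptgr2, a prostaglandin reductase gene, had a log2 ratio of -0.34.

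**Figure D4:**
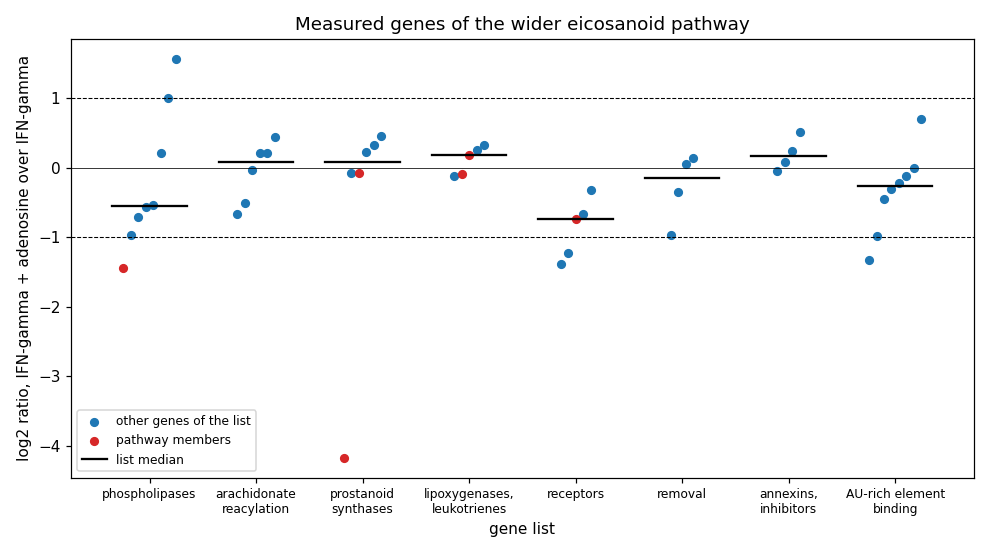
Log2 ratio of the adenosine array over the IFN-gamma array for the measured genes of 8 lists (6 of the pathway, and annexins and AU-rich element binding proteins), with members in red, other genes in blue, list medians as bars and dashed lines at 2-fold. Ptgs2 stands alone at -4.17 among prostanoid synthases, all 5 receptors lie below 0 by their brightest probe sets, and Pla2g15 and Pla2g12a are the points at or above the upper line, although both lay below 0 as deposited and Pla2g15 also with spiked-in scaling.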

How the data were processed

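Probe set signals came from 2 arrays, 1 per treatment. The deposited values are linear intensity values that the authors had not brought to a common level; the submitters' processing notes name the software GCOS, while the algorithm behind the signals and its target level were not given in the sources used here. A probe set was assigned to a gene by the single symbol of the platform annotation, updated through Entrez identifiers with RefSeq's GRCm38.p6 table. Of 22626 gene probe sets, 20380 carried 1 symbol, 691 several and 1555 none. The brightest probe set, by its mean over both arrays, stood for each gene, and the median log2 ratio was taken over probe sets at or above 24.5 as deposited on both arrays. Because the 2 arrays differed in median level as deposited, ratios were centred before they were read. Whether this shift arose in processing or in the cells was not tested.

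With 1 array per treatment no test was made, and genes were counted at 2-fold. The error comes from differences between the 2 brightest probe sets of a gene, divided by the square root of 2, over all such genes and in 4 groups by signal. Members and lists were chosen with earlier results of these data known. Named beyond the members were list genes at least 2-fold different or, where a list had fewer than 2, its 2 largest absolute log2 ratios, and the 3 genes nearest to Ptgs2. Alternatives were other scalings, a pseudocount of 16, a lower floor (33rd percentile) and a higher one (67th), other probe set choices, and thresholds of 1.5-fold and 3-fold. The calculation was tested on simulated data with 200 changed genes. It recovered 84.0% of them at a log2 change of 1.5 and 100% at 3.0. The changed genes were all placed well above the floor, so signals near it were not covered. Python 3.11.15, numpy 2.4.6, pandas 2.3.3 and statsmodels 0.14.6 were used.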

Additional observations from a re-analysis of the deposited data

How the results depend on the processing

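No paired analysis was possible because both treatments were single arrays, which also left no replicate to omit. Members at least 2-fold lower numbered 2 of 6 measured. They numbered 5 of 6 as deposited (78.8% of all genes), 4 of 6 with spiked-in scaling (50.7%), 4 of 8 with the floor at the 33rd percentile (10.3%), 1 of 4 without shared probe sets (names ending in _s_at, _x_at or _a_at), where Pla2g4a and Lta4h were not measured (10.1%), and 1 of 6 at 3-fold (2.96%). The members' median of -0.41 became -1.91 as deposited, -1.38 with spiked-in scaling and -1.09 over 8 members with the floor at the 33rd percentile. The median of all measured genes, -0.08, became -1.50, -1.01 and 0.0 in these settings. No alternative gave a member at least 2-fold higher. The difference of Ptgs2 from Pla2g4a, -2.73, was -1.23 when the 67th percentile was the floor and -1.91 over the mean of all probe sets. It replaced the planned difference from Ptgs1, which was not run, and was chosen after seeing the data, as was centring on probe sets above the scaled floor, which moved no member's log2 ratio by more than the probe set SD. Of the genes 2-fold higher, Pla2g15 reversed to -0.98 as deposited and -0.45 with spiked-in scaling, where its other probe set was the brightest, and Pla2g12a to -0.49 as deposited. Over all genes, 691 lower and 308 higher of 6818 became 5605 and 10 of 7117 as deposited, 3538 and 33 of 6975 with spiked-in scaling, 328 and 133 of 5062 under the 67th percentile floor, 1489 and 879 at 1.5-fold, and 202 and 67 at 3-fold; with the floor at the 33rd percentile they were 944 and 599 of 9177. Beyond what each setting changes by its construction, the cause was not tested. Signals near the floor limit Tbxas1, Ptges and Ptger2, and also the size of the Ptgs2 ratio. The brightest Ptgs2 probe set had 58.6 with adenosine, near the floor of 44.0. As deposited it had 20.8, below the floor of 24.5, so the log2 ratio of -5.43 was a bound.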

Other observations

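AU-rich element binding proteins control how long messenger RNAs such as that of Ptgs2 persist. Of 8 measured, Hnrnpd, which encodes the decay factor AUF1, had signals of 1845 and 735 and was 2.51-fold lower with adenosine, and none was 2-fold higher, where 10.1% and 4.52% of all measured genes were lower and higher by that much. Their median log2 ratio was -0.27, and -0.09 with the mean of all probe sets, compared with -0.08 and -0.06 for all measured genes. Second probe sets of Zfp36l1 and Zfp36l2, of the decay-promoting tristetraprolin family, went the other way from the brightest, at 2.05 against -0.31 and 1.23 against -0.22. Tia1, a translational silencer gene, had signals of 195 and 98.4, a log2 ratio of -0.98, and its second probe set gave -1.25. Annexins and other inhibitors of phospholipase A2 had a median of 0.17 over 4 genes, none of them 2-fold different, and -1.11 as deposited and -0.59 with spiked-in scaling. S100a10, the partner of annexin A2, had 3277 and 4681, a log2 ratio of 0.51, and Anxa2 3431 and 4071, a log2 ratio of 0.25; as deposited they became -0.98 and -1.25, and with spiked-in scaling -0.45 and -0.72.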
